A study of Mus musculus with 96 samples.

Results

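Apolipoproteins are the protein coat of the particles that carry fat and cholesterol in blood. The 10 genes described here are 9 apolipoprotein genes (Apoa1, Apoa2, Apoa4, Apoa5, Apob, Apoc1, Apoc2, Apoc3 and Apoe) and Mttp, which encodes the transfer protein that loads fat onto apolipoprotein B. They were taken by symbol from a table of 21990 genes, of which 20155 had values, and all 10 were found and passed the filter on low values in liver. Livers and islets of 48 mice were sequenced, with 4 mice on a high-fat diet (HFD) and 4 on a chow diet (CD) at each of weeks 4, 8, 12, 16, 20 and 24. All were male C57BL/6N mice, obtained at 4 weeks of age and carrying no engineered allele by their labels. The HFD was Research Diets D12492 (60% fat) and the CD was LabDiet 5001 (13.5% fat). The CD is a natural-ingredient chow and not a low-fat match of the HFD, so fat and the other ingredients cannot be told apart. A mouse's age, its time on diet and any batch of its week cannot be told apart either. The 4 libraries of a group came from separate mice, by the mouse numbers in the labels, and mice are named here by diet and that number.

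The liver secretes most of these proteins. Apolipoprotein B is the backbone of very-low-density lipoprotein and Mttp fills it with triglyceride, whereas apolipoprotein A-I and A-II form the coat of high-density lipoprotein. The small C apolipoproteins and apolipoprotein E exchange between particles: C-II activates lipoprotein lipase, C-III and C-I slow the clearance of triglyceride-rich particles, and E is a ligand for the receptors that remove remnants. Apolipoprotein A-V favours lipolysis, and apolipoprotein A-IV is made in mouse liver and intestine in response to fat. Several of the genes lie in 2 clusters. In the table, which the submitters' processing notes place on GRCm38.p5, Apoa1 (chr9:46228472-46230469), Apoc3 (chr9:46233050-46235636), Apoa4 (chr9:46240844-46278810) and Apoa5 (chr9:46268288-46271919) are neighbours on chromosome 9. Apoc2 (chr7:19671579-19681460), Apoc1 (chr7:19689480-19693311) and Apoe (chr7:19696244-19699188) are neighbours on chromosome 7. Apoa2 (chr1:171221564-171226379), Mttp (chr3:138089855-138143461) and Apob (chr12:7977634-8016841) lie apart from the other members.

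Apoa4 and Apoc2, on different chromosomes, were the members that differed between the diets within single weeks, and their promoters are shown for that reason. The sequences are RefSeq's for GRCm38.p6, 250 bases before to 50 after the start of the gene, 5′ to 3′ on the gene's strand. Of the 10 members, 8 had an entry and 2, Apoc1 and Apoc3, had none. Capitals mark matches on either strand. The first motif, CAAAGT, is the core of an HNF4-type site. The second, AGGTCA, is a nuclear receptor half-site. The third, TATAAA, is a TATA box. The windows are chr9:46240594-46240893 (plus strand) for Apoa4, chr7:19677892-19678191 (minus strand) for Apoc2 and chr9:46268358-46268657 (plus strand, the first of 2 entries) for Apoa5. The motifs were chosen after the sequences were seen, and their letters were found in 14.4%, 16.3% and 13.6% of all 32851 promoter entries.
Apoa4: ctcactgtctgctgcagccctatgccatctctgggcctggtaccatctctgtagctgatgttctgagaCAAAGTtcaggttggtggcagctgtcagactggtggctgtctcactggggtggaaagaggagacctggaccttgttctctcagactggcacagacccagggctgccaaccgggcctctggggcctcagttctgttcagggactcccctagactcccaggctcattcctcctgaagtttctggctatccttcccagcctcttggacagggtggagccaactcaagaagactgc
Apoc2: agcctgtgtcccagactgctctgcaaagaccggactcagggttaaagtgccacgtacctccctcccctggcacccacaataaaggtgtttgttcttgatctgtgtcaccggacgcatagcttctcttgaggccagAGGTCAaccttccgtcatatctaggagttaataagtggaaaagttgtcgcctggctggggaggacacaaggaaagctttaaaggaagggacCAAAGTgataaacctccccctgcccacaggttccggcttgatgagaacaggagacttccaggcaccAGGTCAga
Apoa5: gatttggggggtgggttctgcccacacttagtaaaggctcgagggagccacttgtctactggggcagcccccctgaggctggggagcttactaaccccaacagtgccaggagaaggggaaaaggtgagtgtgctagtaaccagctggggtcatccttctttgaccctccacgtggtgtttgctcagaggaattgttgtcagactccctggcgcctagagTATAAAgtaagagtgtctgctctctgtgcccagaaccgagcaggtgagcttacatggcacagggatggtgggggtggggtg
Apoa4 held 1 CAAAGT, beginning 182 bases before the start. Apoc2 held 1 CAAAGT, beginning 24 bases before the start, and 2 AGGTCA, of which 1 lay after it. Apoa5, shown as a gene whose row overlaps that of Apoa4 in the table, held neither in this window and 1 TATAAA. Matches are a description and were not tied to any factor's binding.

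Expression was given as FPKM, a length-scaled and library-scaled expression value, with 2 decimals and no read counts, so the depth behind each value is not known here. Differences are log2 fold changes of HFD over CD on the scale log2(FPKM + 1), with standard errors from limma, and a gene was called at a Benjamini-Hochberg adjusted p under 0.05 over all genes tested. All 9 hepatocyte markers stood at 1 FPKM or more in all 48 liver libraries, with albumin between 16734 and 46057 FPKM. Some livers also held transcripts of the 4 islet hormone genes Ins1, Ins2, Gcg and Sst. Their sum was 0 to 3578 FPKM in CD and 0 to 0.73 FPKM in HFD at week 12. At week 16 it was 111 to 2418 FPKM in CD and 0 to 109 FPKM in HFD. The part of such transcripts in the results was not tested. In 2 CD livers of week 4 (CD103 and CD104), long transcripts were low against short ones: the median log2 deviation of 1024 genes with transcripts of at least 8000 bases minus that of 1301 genes under 1500 bases was -0.53 and -0.61, against -0.35 to 0.34 in the other 46. The median log2 fold change of all genes tested was 0.08 for the mean over weeks and between 0.04 and 0.11 within weeks. With libraries rescaled by median ratios the overall median became -0.02, and the genes called for the mean over weeks went from 3892 higher and 738 lower to 1912 and 2332, which makes weak differences depend on the scaling. In bulk tissue, fewer cells of a type and less RNA per cell cannot be told apart.

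Per length, the members spanned from the most abundant liver transcripts to moderate ones. Apoe (median 14296 FPKM over 48 livers) and Apoa2 (14022 FPKM) ranked near the top of the liver transcriptome, and Apoe exceeded Apoa2 in 31 of 48 libraries, so their order was not settled. Apoa1 (7098 FPKM) and Apoc1 (6772 FPKM) followed, with Apoa1 the higher in 30 of 48, and Apoc3 (3597 FPKM) lay below Apoc1 in all 48. Apoa5 (653 FPKM) and Apoa4 (615 FPKM) could not be ranked, since Apoa5 was the higher in 23 of 48. Apoc2 (305 FPKM) exceeded Apob (271 FPKM) in 31 of 48, and Mttp (73.1 FPKM) was below Apob in all 48. Together the members took 5.55% to 11.2% of the summed FPKM of a liver library. Apoa4 varied most, 34.2-fold between its lowest and highest library (98.8 to 3375 FPKM), with an SD between mice of a group of 0.82 on the log2 scale, whereas the other 9 spanned 2.15-fold (Apoe) to 5.58-fold (Apob) with SDs of 0.19 to 0.34.

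Over the time course, 5 of 60 tests of a member in a week passed, all higher in HFD, and they belonged to Apoa4 and Apoc2. At week 4, 0 of 10 members passed by limma (1 higher and 1 lower at an unadjusted p under 0.05), where 0.0405% of 9875 genes were called higher and 0.0101% lower. At week 8, 0 of 10 passed (6 higher and 0 lower unadjusted), beside 6.17% of all genes higher and 1.33% lower. Week 12 had 2 of 10 members higher, beside 9.42% higher and 1.22% lower of all genes, and week 16 again 2 of 10, beside 6.74% and 0.682%. Week 20 had 1 of 10 higher, beside 1.73% and 0.746%, and week 24 had 0 of 10 (2 higher unadjusted), beside 0.65% and 0.187%. In 1 fit of all 48 livers, the mean of the 6 weekly differences was called higher for 3 of 10 members (Apoa4, Apoc2 and Apoe) and lower for 0, beside 35.8% and 6.78% of 10879 genes. For the mean over weeks the share higher lay near the background. At weeks 12, 16 and 20 it lay above the background, but on only 2, 2 and 1 genes. Nothing is concluded here for the members as a group, and the results below are those of single genes.

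**Figure D1:**
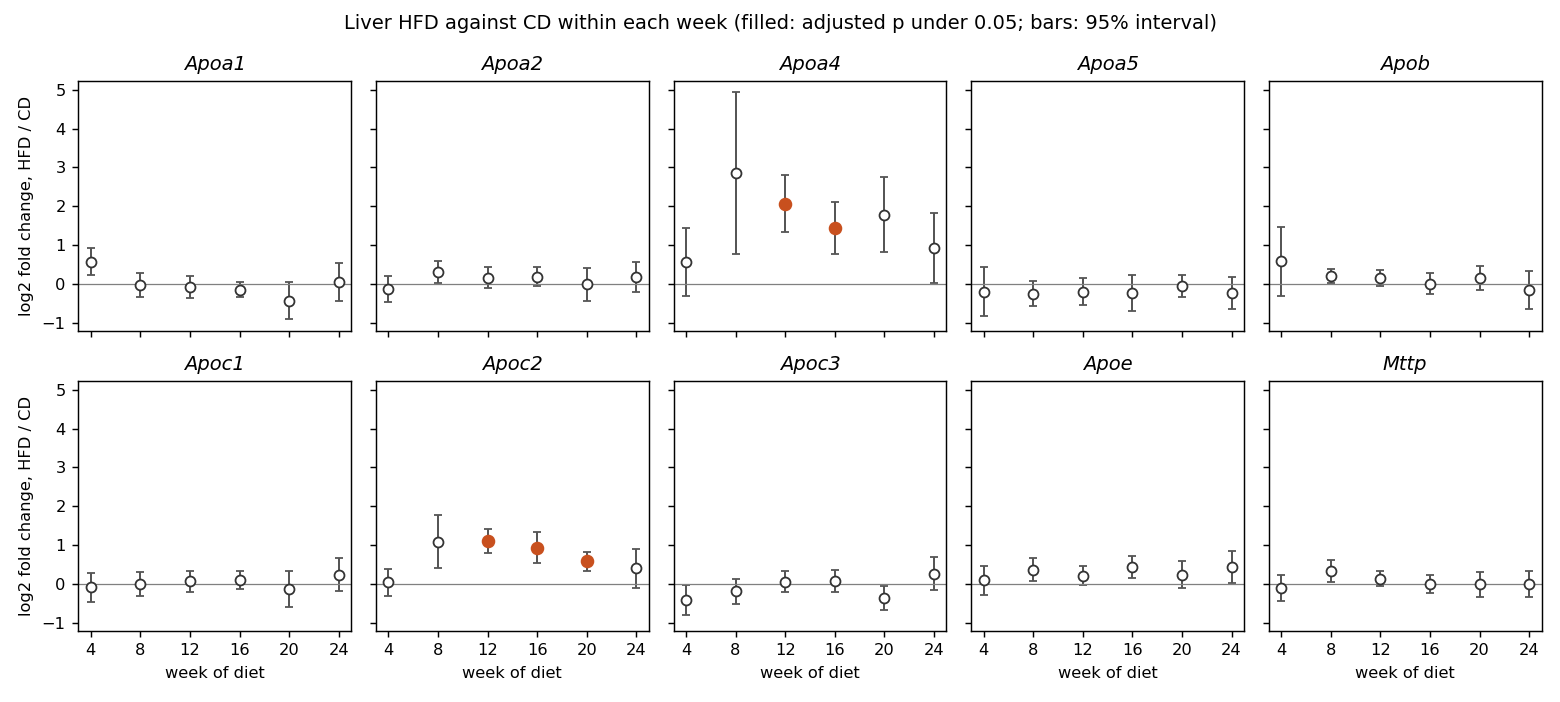
Log2 fold change of HFD over CD in liver for each of the 10 members (panels) by week of diet, with 95% intervals from limma and filled points where the adjusted p was under 0.05. The 5 filled points are Apoa4 at weeks 12 and 16 and Apoc2 at weeks 12, 16 and 20, and the other 8 members have open points in every week.

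Apoa4 showed the largest difference among the members, from week 8 onward. At week 4 the 4 CD mice stood at 465, 190, 289 and 124 FPKM and the 4 HFD mice at 565, 259, 334 and 317 FPKM, which overlapped. At week 8 the CD mice stood at 441, 173, 239 and 98.8 FPKM, and 3 HFD mice stood at 2815, 2386 and 3375 FPKM while the fourth, HFD217, stood at 216 FPKM. Thus 3 HFD livers lay far above every CD liver and 1 lay within the CD range. The week 8 means were 238 ± 147 (SD, n = 4) in CD and 2198 ± 1382 in HFD, a ratio of 9.23, and the log2 fold change of 2.85 ± 0.90 (SE) was not called (limma, adjusted p = 0.107). Without HFD217 it was 3.77 and was called (adjusted p = 0.00287).

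At week 12 Apoa4 stood at 218, 314, 324 and 329 FPKM in CD mice and at 2221, 1233, 671 and 1231 FPKM in HFD mice. The groups did not overlap, and the log2 fold change was 2.07 ± 0.32 (limma, adjusted p = 0.0126). At week 16 the CD mice stood at 558, 629, 952 and 1154 FPKM and the HFD mice stood at 1324, 2854, 2403 and 2375 FPKM, again without overlap (1.45 ± 0.29, limma, adjusted p = 0.0226). The week 16 call was lost when CD403, HFD414, HFD416 or HFD418 was left out, with adjusted p-values of 0.0566 to 0.0762, and with all 12 groups in one fit (adjusted p = 0.106). At week 20 CD mice stood at 535, 487, 338 and 273 FPKM and HFD mice at 2410.1, 1290.1, 1825 and 599.9 FPKM, so that the groups did not overlap but the difference of 1.78 ± 0.42 missed the threshold (limma, adjusted p = 0.0713). At week 24 the ranges met, with 376 to 1445 FPKM in CD and 1160.4 to 2231 FPKM in HFD (0.92 ± 0.40, limma, adjusted p = 0.302). The mean over weeks was 1.61 ± 0.23 (95% interval 1.14 to 2.08, limma, adjusted p = 7.97e-07), with HFD the higher on average in 6 of 6 weeks, and it was called in 48 of 48 fits that each left out 1 mouse.

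**Figure D2:**
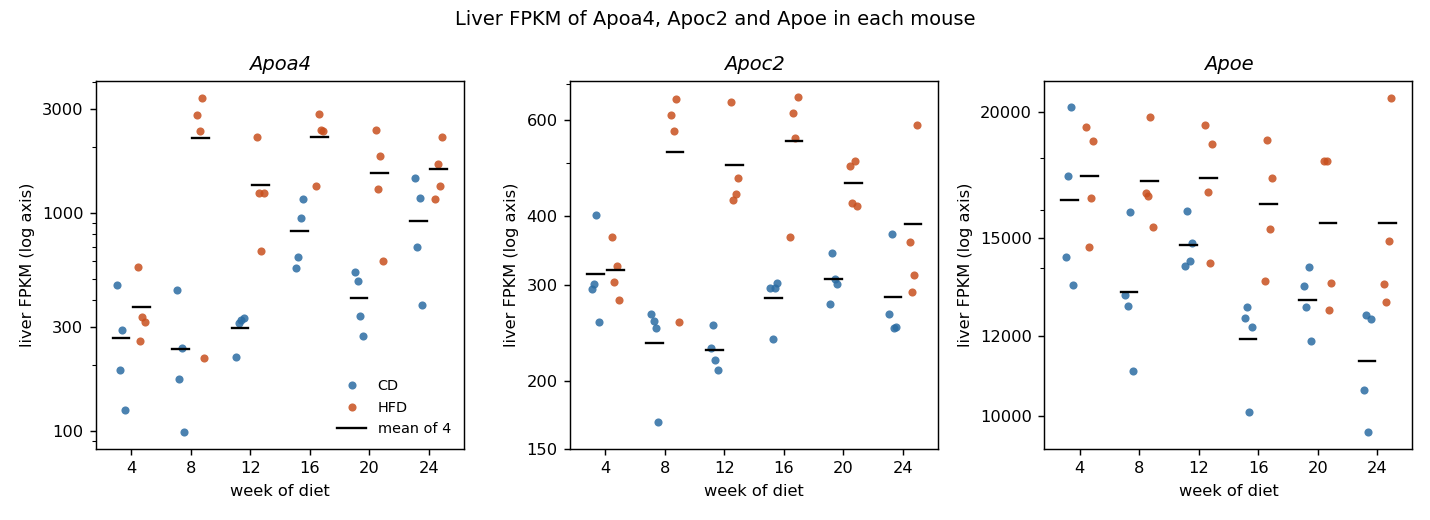
Liver FPKM (log axis) of Apoa4, Apoc2 and Apoe by week of diet, 1 point per mouse, CD in blue and HFD in orange, with a black line at the mean of 4. In week 8, HFD217 is the single orange point among the blue ones for Apoa4 (216 FPKM) and Apoc2 (257 FPKM), and Apoe shows a smaller offset with overlap in most weeks.

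Apoc2, the activator of lipoprotein lipase, was called higher at weeks 12, 16 and 20. At week 4 it ranged from 256 to 402.6 FPKM in CD mice and from 281 to 367 FPKM in HFD mice, which overlapped (0.04 ± 0.15, limma, adjusted p = 0.918, and -0.09 with median ratio scaling). At week 8 the CD mice stood at 265, 257, 249 and 168 FPKM, 3 HFD mice stood at 613, 575 and 656 FPKM, and HFD217 stood at 257 FPKM, again inside the CD range. The difference of 1.09 ± 0.30 was not called (limma, adjusted p = 0.0656), and without HFD217 it was 1.41 and was called (adjusted p = 0.00161). At week 12 Apoc2 stood at 230, 253, 218 and 209 FPKM in CD and 649, 428, 439 and 469.9 FPKM in HFD. Every HFD liver was above every CD liver, with a ratio of means of 2.18 (1.105 ± 0.14, limma, adjusted p = 0.00452).

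At week 16 Apoc2 stood at 295, 238, 296 and 302 FPKM in CD and at 367, 618, 557 and 661 FPKM in HFD, without overlap (0.93 ± 0.18, limma, adjusted p = 0.0142). Without HFD414 that call was lost (adjusted p = 0.0506). At week 20 it stood at 276, 343, 307.2 and 301 FPKM in CD and at 495, 423, 505.2 and 419 FPKM in HFD, without overlap (0.58 ± 0.11, limma, adjusted p = 0.0295), but leaving out any 1 of 7 of the 8 mice brought the adjusted p to between 0.0556 and 0.0964, and one fit of all 12 groups brought it to 0.0813. At week 24 CD ranged from 249.7 to 372 FPKM and HFD from 291 to 589 FPKM, with overlap (0.41 ± 0.23, limma, adjusted p = 0.428). The mean over weeks was 0.69 ± 0.09 (95% interval 0.52 to 0.87, limma, adjusted p = 4.68e-08).

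Whether the effect of the diet differed between weeks was tested as an interaction. By limma, 0 of 10 members passed (3 at an unadjusted p under 0.05: Apoa1, Apoc2 and Apoc3), beside 1.46% of all genes. Without HFD217, an alternative chosen after its values were seen, 2 members passed, Apoa4 (adjusted p = 0.0231) and Apoc2 (adjusted p = 0.00868). HFD217 was low in other transcripts that were high in the other HFD livers of week 8. Cidec, a lipid droplet protein, stood at 3.66 FPKM in HFD217, 35.8 to 47.8 FPKM in the other 3 and 0.40 to 1.00 FPKM in CD. Cd36, a fatty acid carrier, stood at 32.8 FPKM in HFD217, against 84.0 to 95.7 FPKM in the other 3 and 2.97 to 9.55 FPKM in CD. Both genes were chosen after their values were seen, and the part of this mouse's state in the week 8 results was not tested.

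Apoa4 and Apoc2 also varied together from mouse to mouse. With group means removed, their Pearson correlation over 48 livers was 0.70, with 0.37 among the 24 CD and 0.83 among the 24 HFD mice, and 0.73 in HFD without HFD217. This is a description, since the points share library size and RNA quality. Apoc2 was the second most alike of 10879 genes to Apoa4, after Treh (trehalase, 0.71) and before Sprr1a (0.69). For Apoc2, the genes most alike were Capns1 (0.82), Lgals1 (0.80) and Rab1b (0.79). Apoe was most like Ddrgk1 (0.89), Apoa2 like S100a1 (0.87) and Apob like Serinc1 (0.95).

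**Figure D3:**
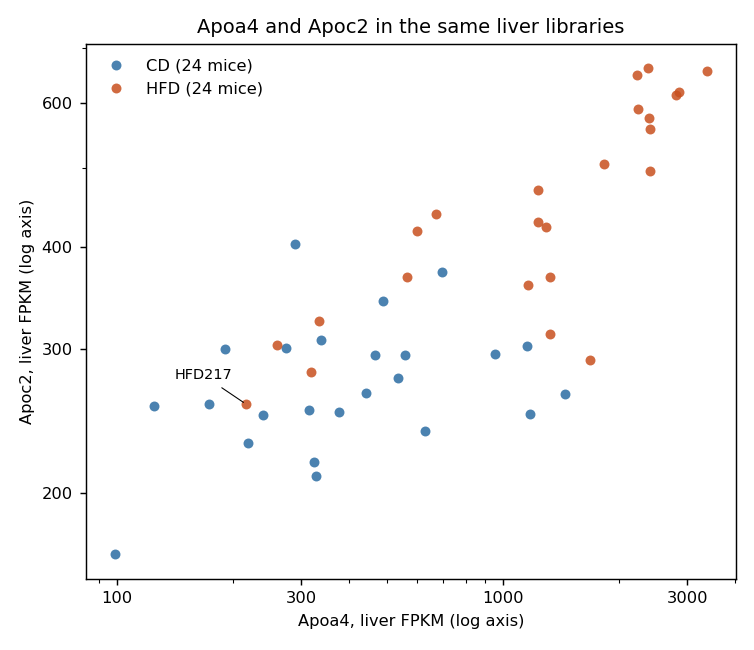
Apoc2 against Apoa4 in the same liver library (FPKM, both axes log), 1 point per mouse, 24 CD in blue and 24 HFD in orange. The HFD mice high in both genes form the upper right, and HFD217 (216 FPKM of Apoa4, 257 FPKM of Apoc2) lies among the CD mice.

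Because Apoa4 is also an intestinal transcript, the 4 enterocyte markers Fabp2, Vil1, Sis and Lct were read beside it. In liver their summed level was 13.4 to 107 FPKM in CD and 42.7 to 215 FPKM in HFD, nearly all of it Fabp2, the intestinal fatty acid binding protein. Of the 4, only Fabp2 passed the filter, and it was higher in HFD at weeks 8, 12, 16 and 20 (log2 fold change 1.51 ± 0.24, 1.504 ± 0.19, 0.76 ± 0.18 and 0.85 ± 0.15, limma, adjusted p = 0.00958, 0.00519, 0.0340 and 0.0226). Sis was at 0 in 44 of 48 livers, and Vil1, Sis and Lct reached 1 FPKM in 1 liver each, which was HFD211 of week 8 for all 3 (2.5, 1.4 and 1.3 FPKM). In the other 47 livers they stayed at or below 0.46, 0.11 and 0.12 FPKM. Without HFD211 the week 8 difference of Apoa4 was 2.54 (limma, adjusted p = 0.247) and its mean over weeks was 1.56 (adjusted p = 1.79e-06). The part of intestinal transcripts in the other livers was not tested.

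The table's gene models bear on these values, since reads of overlapping genes may be split in ways not given in the sources used here. The row of Apoa4 held 2 transcripts and ran over Apoa5 and the neighbouring gene Zpr1, and in RefSeq Apoa4 ends at 46243458. Apoa5 was lower on average in HFD in 6 of 6 weeks and called in none, and Zpr1 was called lower at weeks 12 and 16 (log2 fold change -0.51 ± 0.12 and -0.43 ± 0.11, limma, adjusted p = 0.0290 and 0.0465). The row of Apoc2 ran over Apoc4 and the readthrough Apoc4-apoc2 on the same strand, so how reads were split among these 3 rows is uncertain. The row of Apoe overlapped that of Tomm40 on the same strand. That of Apoa2 overlapped Tomm40l on the other strand, and that of Apob overlapped Serpina1d, given without a strand. Apoc4 was called in 0 weeks, with a mean over weeks of -0.04 ± 0.06 (limma, adjusted p = 0.607), and the readthrough stood at 2.05 to 14.2 FPKM in CD and 2.49 to 12.9 FPKM in HFD.

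Apoe, the ligand of remnant receptors, was higher in HFD by a smaller step. It was higher on average in 6 of 6 weeks, though at week 4 the sign turned with median ratio scaling (0.09 against -0.04). At week 8 it stood at 13158, 12854, 15936 and 11077 FPKM in CD and 16638, 16517, 19766 and 15376 FPKM in HFD, which overlapped by 1 mouse on each side. At week 16 it stood at 12487, 12827, 10087 and 12233 FPKM in CD and 13613, 18769, 15306 and 17214 FPKM in HFD. These did not overlap, yet 0.44 ± 0.13 was not called (limma, adjusted p = 0.0651). At week 24 the groups also did not overlap, with 9630.3 to 12588 FPKM in CD and 12973 to 20671 FPKM in HFD (0.44 ± 0.19, limma, adjusted p = 0.301).

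Apoe was called in 0 of 6 weeks (3 at an unadjusted p under 0.05), and the mean over weeks was 0.30 ± 0.06 (95% interval 0.18 to 0.42, limma, adjusted p = 8.66e-05). It was called in 48 of 48 fits that left out 1 mouse. With median ratio scaling it was 0.18 (adjusted p = 0.0160). Macrophages also make apolipoprotein E, and their markers were read in the same livers. Of 8 resident macrophage markers, 0, 0, 1, 1, 3 and 0 were called higher at weeks 4, 8, 12, 16, 20 and 24, and of 4 lipid-associated macrophage markers 0, 0, 1, 3, 0 and 2, with none called lower. Of all genes, 0.0405%, 6.17%, 9.42%, 6.74%, 1.73% and 0.65% were called higher in those weeks. The marker counts rest on few genes, and nothing is concluded from them. The summed level of the resident list did not overlap at week 12 (39.4 to 62.9 FPKM in CD, 76.2 to 189.8 FPKM in HFD) and week 20 (82.3 to 105.5 FPKM and 131.8 to 169.5 FPKM), and overlapped in the other 4 weeks. That of the lipid-associated list did not overlap at week 16 (30.2 to 42.3 FPKM in CD, 50.8 to 58.7 FPKM in HFD), and overlapped in the other 5. The part of these cells in the result was not tested.

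The other 7 members were not called in any week. Apoa1 was higher in HFD at week 4, at 9273 to 12443 FPKM against 6053 to 8093 FPKM in CD, without overlap (0.58 ± 0.15, limma, adjusted p = 0.186). At week 16 it was lower without overlap, at 6319 to 6770 FPKM against 6825 to 7527 FPKM (-0.15 ± 0.08, limma, adjusted p = 0.343), and its mean over weeks was -0.01 ± 0.07. Apoc3, from the same cluster, had -0.41 ± 0.17 at week 4 and -0.37 ± 0.14 at week 20 (limma, adjusted p = 0.348 and 0.233), and -0.10 ± 0.06 over all weeks. Apoa5 had a mean of -0.20 ± 0.09 (95% interval -0.37 to -0.02, limma, adjusted p = 0.0616). With median ratio scaling both were called lower, Apoa5 at -0.31 (adjusted p = 0.00391) and Apoc3 at -0.21 (adjusted p = 0.00955), so that 3 members were higher and 2 lower under that scaling.

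The assembly genes moved little. Apob had its widest gap at week 4, where CD101 and CD106 stood at 230 and 227 FPKM, CD103 and CD104 at 76.7 and 78.9 FPKM, and HFD mice at 164 to 249.99 FPKM. The 2 low mice are the libraries low in long transcripts described above, and the longest transcript of Apob has 17762 bases. The week 4 difference was 0.59 ± 0.39 (limma, adjusted p = 0.537), and the mean over weeks 0.16 ± 0.09 (adjusted p = 0.185). That mean was 0.07 without CD103, CD104 and HFD617, which was low in Apob at week 24, and 0.04 without CD103, CD104 and HFD112, the next lowest in long transcripts (adjusted p = 0.287 and 0.628). Mttp reached 0.33 ± 0.12 at week 8 (74.4 ± 8.59 FPKM in CD, 94.1 ± 13.3 FPKM in HFD, limma, adjusted p = 0.151) and averaged 0.06 ± 0.05 (95% interval -0.05 to 0.17). Apoa2 averaged 0.11 ± 0.06 (95% interval -0.00 to 0.23) and Apoc1 0.03 ± 0.07 (-0.11 to 0.17), limma, adjusted p = 0.114 and 0.749.

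In CD mice alone, 6 of 10 members differed between weeks by limma's F test, beside 55% of all genes, a share near the background. Apoc3 fell from 6300.4 FPKM at week 4 to 2434 FPKM at week 24 (2.59-fold, adjusted p = 2.71e-07), and Apoc1 from 9744 to 4462 FPKM (2.18-fold, adjusted p = 3.07e-05). Their longest transcripts are short, at 631 and 907 bases. The deviation of long minus short transcripts described above was -0.61 to -0.11 in CD livers of week 4. At week 24 it was -0.004 to 0.25, and its part in these falls was not tested. Apoa2 and Apoe were also highest at week 4 and lowest at week 24. Apoa4 was lowest at week 8 (238 FPKM) and highest at week 24 (922 FPKM, 3.87-fold, adjusted p = 0.00766). It did not rise steadily, with 823 FPKM at week 16 and 408 FPKM at week 20. Apob ranged from 153 FPKM at week 4 to 357 FPKM at week 16 (adjusted p = 0.000133). Without CD103 and CD104, 5 members passed the same F test. Apoc3 (adjusted p = 3.65e-05), Apoc1 (adjusted p = 0.00107) and Apob (adjusted p = 0.0108) were among them, and Apoe was not (adjusted p = 0.160).

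Genes that act with the members were read from 8 lists of 78 genes in all, of which 75 were tested in at least 1 week. Of these 75, 13 were higher and 5 lower in at least 1 week, beside 15.2% and 3.06% of the 10537 genes tested in at least 1 week. The share higher lay near the background, and the share lower lay above it on only 5 genes. Of the 75, the mean over weeks was called higher for 19 and lower for 6, beside the 35.8% and 6.78% of all genes. Among 10 lipases and regulators, 3 were called higher and 1 lower in a week. Lpl, the lipase that Apoc2 activates, was low in liver but higher at weeks 12, 16 and 24 (from 2.10 ± 0.54 FPKM with CD to 6.60 ± 1.20 FPKM with HFD at week 16, 1.297 ± 0.15, limma, adjusted p = 0.00111). Lmf1, which matures lipases, was higher at weeks 12 and 16 (0.37 ± 0.10 and 0.43 ± 0.11, limma, adjusted p = 0.0427 and 0.0375). Pltp, the phospholipid transfer protein, was higher at week 12 (1.04 ± 0.27, limma, adjusted p = 0.0440). Angptl8, an inhibitor of lipoprotein lipase, was lower at week 8 (95.6 ± 8.12 FPKM in CD and 39.6 ± 8.75 FPKM in HFD, -1.27 ± 0.16, limma, adjusted p = 0.00419).

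Of 15 assembly and secretion genes, 3 were called higher and 1 lower. Apobec1, the enzyme that edits Apob messenger RNA to the short form B-48, was higher at weeks 12, 16 and 20 (0.80 ± 0.12, 0.81 ± 0.19 and 0.84 ± 0.18, limma, adjusted p = 0.00697, 0.0345 and 0.0401) with group means of 5.83 to 17.4 FPKM in those weeks. P4hb, the partner subunit of Mttp, was higher at week 12 (413 ± 41.2 FPKM in CD and 686 ± 93.4 FPKM in HFD, 0.73 ± 0.11, limma, adjusted p = 0.00972), where Mttp had 0.13 ± 0.09. Sar1b, a coat component for export of large particles, was higher at week 8 (0.40 ± 0.07, limma, adjusted p = 0.0104), and Tm6sf2 was lower at week 16 (-0.63 ± 0.15, limma, adjusted p = 0.0317). Among receptor and uptake genes, Vldlr, tested in 1 week, was higher at week 16 (0.82 ± 0.10, limma, adjusted p = 0.00159) and Lsr was lower at week 8 (-0.35 ± 0.07, limma, adjusted p = 0.0197).

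Of 10 other apolipoprotein genes, the acute phase members Saa1 and Saa2 were called higher, at week 8 (1.93 ± 0.26 and 2.40 ± 0.38, limma, adjusted p = 0.00554 and 0.00993). Their means over weeks were -0.15 ± 0.41 and -0.33 ± 0.55. Of 4 sterol efflux transporters, Abcg1 was higher at week 12 (0.49 ± 0.12, limma, adjusted p = 0.0305). Of 16 transcription factors that act on apolipoprotein genes, 1 was called, Ppara, the fatty acid receptor, higher at week 8 (0.79 ± 0.14, limma, adjusted p = 0.0115). Creb3l3, named for its known role as an activator of Apoa4 and Apoc2, was called in 0 weeks, had a mean over weeks of 0.13 ± 0.05 (limma, adjusted p = 0.0359), and had residual correlations over 48 livers of 0.03 with Apoa4 and 0.21 with Apoc2. Among the 24 HFD mice these were -0.04 and 0.27, and 0.21 and 0.54 without HFD217. Among the neighbours of the Apoa1 cluster Tagln was higher at weeks 12 and 16 (1.18 ± 0.18 and 0.85 ± 0.14, limma, adjusted p = 0.00879 and 0.00736), and among those of the Apoe cluster Relb was higher at week 16 (0.66 ± 0.11, limma, adjusted p = 0.00662). Of 7 genes known to respond to fasting, 4 were called higher and 0 lower at week 8, beside 6.17% and 1.33% of all genes. Fgf21, Cpt1a and Cyp4a14 were among them (2.69 ± 0.59, 0.83 ± 0.16 and 5.39 ± 0.90, limma, adjusted p = 0.0366, 0.0180 and 0.0132). Pdk4, Pck1 and G6pc were not called (1.61 ± 1.304, -0.53 ± 0.49 and -0.20 ± 0.32, limma, adjusted p = 0.516, 0.569 and 0.768). The part of feeding state in the week 8 differences was not tested.

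In islets of the same mice the members were far lower. Apoe (median 89.7 FPKM, 42.2 to 163), Mttp (4.83 FPKM, 3.44 to 13.95) and Apoa2 (3.97 FPKM, 2.17 to 28.1) were at 1 FPKM or more in all 48 islet libraries, and the medians of the other 7 lay between 0.02 and 0.86 FPKM. Of the 8 members that passed the filter, limma called 0 for the mean over weeks, and 0 at an unadjusted p under 0.05, beside 38.6% of 12378 genes. Of these 8, Apoa4 and Apoc2 reached 1 FPKM in only 6 and 5 islet libraries. Only 1 and 0 of those lay outside the 6 libraries described in the next paragraph, without which neither gene passed the filter. Their results therefore rest on those libraries. Apoe had 0.08 ± 0.07 (limma, adjusted p = 0.362), Mttp -0.05 ± 0.08 (adjusted p = 0.692) and Apoa2 0.24 ± 0.13 (adjusted p = 0.119). With Ins1 and Ins2 left out of the library total, Apoa2 (0.31, adjusted p = 0.0399) and Apoe (0.16, adjusted p = 0.0497) were called higher.

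In islets, 6 libraries, picked after their values were seen, stood apart in these transcripts. HFD118 of week 4 had 192 FPKM of Apoa4, 109 FPKM of Apoa1, 59.9 FPKM of Apoc2, 36.2 FPKM of Apoc3 and 13.95 FPKM of Mttp. CD208, CD407, CD505 and HFD617 were above the 42 libraries not named here in 3 of these genes, with 6.96 to 16.2 FPKM of Apoa4, 7.39 to 17.95 FPKM of Apoa1 and 1.84 to 4.29 FPKM of Apoc2. In the rest Apoa4 was at or below 1.39 FPKM. The enterocyte markers moved with them: Fabp2 was at 41.6 FPKM in HFD118, 2.49 to 6.97 FPKM in the other 4, and at or below 0.74 FPKM in the rest, with Sis at 3.17 FPKM in HFD118 and 0.20 to 1.43 FPKM in the other 4, and Lct at 2.90 FPKM and 0.24 to 0.50 FPKM. Vil1, at 34.0 FPKM or more in all 48 islet libraries, did not separate them. HFD313 of week 12 differed, with 28.1 FPKM of Apoa2, 11.1 FPKM of Apoa1, 7.55 FPKM of Apoc1 and 0.31 FPKM of Apoa4, beside 0.20 FPKM of Fabp2. The hepatocyte markers were highest in HFD313 and HFD617, with 48.8 and 14.5 FPKM of Alb, 6.37 and 4.02 FPKM of Ahsg and 2.54 and 3.85 FPKM of Fgb, against at most 13.3, 1.88 and 1.08 FPKM in the 42 libraries not named here. HFD617 also held 8.75 FPKM of Apoa2 and 4.62 FPKM of Apoc1, where those 42 libraries reached 9.65 and 3.59 FPKM, so its Apoa2 lay within their range. Alb stood at 4.24 FPKM in HFD118, 0.28 FPKM in CD208, 6.89 FPKM in CD407 and 0.24 FPKM in CD505. Both diets were among these 6 libraries, and without them limma called 0 of the 6 members still tested (lowest adjusted p = 0.282, for Mttp). Alb also differed by week. In CD islets it was 3.72 to 7.48 FPKM at week 12 and 6.44 to 13.29 FPKM at week 16. It was at most 0.85 FPKM in the other weeks of CD. In HFD these weeks had 3.55 to 48.84 and 5.13 to 11.87 FPKM, and the week 12 range overlapped those of weeks 4, 8 and 24. Apoc1 in CD was 0.68 to 2.56 FPKM at week 12, 1.37 to 3.39 FPKM at week 16 and at most 0.6 FPKM otherwise. The part of hepatocyte transcripts was not tested.

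**Figure D4:**
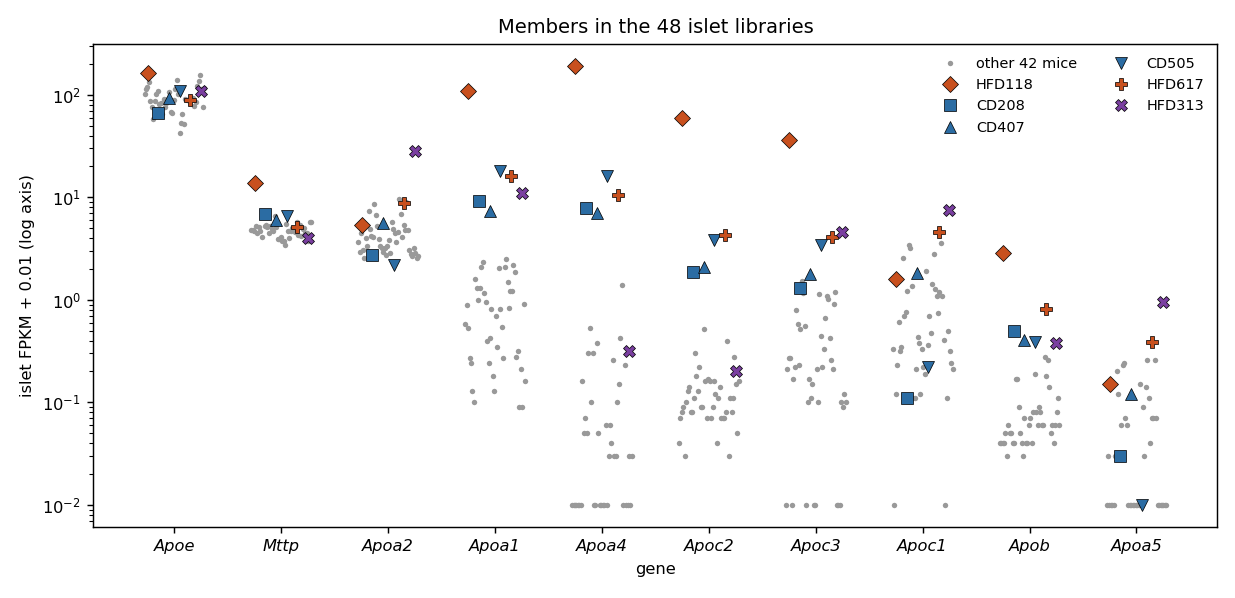
FPKM + 0.01 (log axis) of the 10 members in the 48 islet libraries, grey points for 42 mice and symbols for the 6 named ones. HFD118 stands at 192 FPKM of Apoa4 and 59.9 FPKM of Apoc2, HFD313 stands out for Apoa2 (28.1 FPKM) and Apoc1 (7.55 FPKM) and not for Apoa4 or Apoc2, and Apoe lies between 42.2 and 163 FPKM in all.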

How the data were processed

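RNA of islets and liver of 48 mice was measured in 96 libraries. The authors made libraries from poly(A) RNA. The submitters' processing notes name HISAT2 2.0.4, Bowtie2 2.2.5, RSEM 1.1.12, DESeq2 and GRCm38.p5, without their roles. The authors deposited FPKM per gene and library with 2 decimals. No read counts are in the table, so counting error could not be given. Columns of group means, fold changes, p-values and q-values of the authors' own comparisons and of gene modules were not used.

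Libraries were grouped by the mouse numbers, diets and weeks of the labels. Within a week, 4 HFD and 4 CD libraries were compared by limma 3.58.1 (R 4.3.3, mean-variance trend, robust variances) on log2(FPKM + 1), for genes reaching 1 FPKM in 4 or more libraries, with Benjamini-Hochberg adjustment over all genes tested and a call at 0.05. The mean over weeks, the interaction of diet and week and the weeks within CD came from 1 fit of all 48 libraries of a tissue. The pseudocount of 1 understates changes of low genes. The tests were tried on simulated data. Sequences and motifs were read with Python 3.11.15 from RefSeq's promoter table. Of each pathway list the text names the genes called in the most weeks, ties going to the larger mean fold change, at most 4 per list, and likeness gives up to 3 genes of highest residual correlation. The members and lists were chosen with earlier results of these data known. Alternatives were the pseudocount, the filter, median ratio scaling, limma without trend, 1 fit of 12 groups, totals without abundant genes, a minimum fold change and leaving out mice. Results of 2 listed genes are not reported here.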

Additional observations from a re-analysis of the deposited data

Results flagged for a closer look

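Within groups of 4 mice, 34 values of a member lay farther from the other 3 than Dixon's 95% critical value for the gap over the range, among 190 groups looked at. Chance alone marks about 5% of groups that are not chosen by their own values. Of these, 8 were in liver, among 10 members with 12 groups each, a share near that 5%. The other 26 were in islets. In liver, Apoa4 stood apart at 217.71 FPKM in CD304 (CD week 12), below the other 3 at 314.2 to 328.6 FPKM. In liver, Apoa5 stood apart at 753.77 FPKM in HFD213 (HFD week 8), above the other 3 at 660.7 to 676.6 FPKM. In liver, Apob stood apart at 165.46 FPKM in HFD617 (HFD week 24), below the other 3 at 325.1 to 350.7 FPKM. In liver, Apoc1 stood apart at 4452.47 FPKM in CD507 (CD week 20), below the other 3 at 5866 to 6137 FPKM, and at 3414.13 FPKM in CD606 (CD week 24), below the other 3 at 4697 to 4878 FPKM. In liver, Apoc2 stood apart at 168.09 FPKM in CD208 (CD week 8), below the other 3 at 249.2 to 265.2 FPKM, and at 238.23 FPKM in CD403 (CD week 16), below the other 3 at 295.1 to 302.4 FPKM, and at 372.09 FPKM in CD605 (CD week 24), above the other 3 at 249.7 to 264.5 FPKM. 

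In islets, CD106 (CD week 4) stood apart with 5.25 FPKM of Mttp. CD208 (CD week 8) stood apart with 9.17 FPKM of Apoa1, 7.94 FPKM of Apoa4, 1.84 FPKM of Apoc2 and 1.29 FPKM of Apoc3. CD407 (CD week 16) stood apart with 6.96 FPKM of Apoa4 and 2.07 FPKM of Apoc2. CD505 (CD week 20) stood apart with 17.95 FPKM of Apoa1, 16.2 FPKM of Apoa4, 3.84 FPKM of Apoc2 and 3.44 FPKM of Apoc3. HFD118 (HFD week 4) stood apart with 109.48 FPKM of Apoa1, 191.52 FPKM of Apoa4, 59.89 FPKM of Apoc2, 36.16 FPKM of Apoc3 and 13.95 FPKM of Mttp. HFD313 (HFD week 12) stood apart with 11.06 FPKM of Apoa1 and 4.55 FPKM of Apoc3. HFD416 (HFD week 16) stood apart with 8.99 FPKM of Apoa2 and 3.59 FPKM of Apoc1. HFD617 (HFD week 24) stood apart with 16.32 FPKM of Apoa1, 8.75 FPKM of Apoa2, 10.55 FPKM of Apoa4, 4.62 FPKM of Apoc1, 4.29 FPKM of Apoc2 and 4.1 FPKM of Apoc3. Fabp2 and Alb of these islet libraries, other than CD106 and HFD416, are given above. HFD416 held 11.87 FPKM of Alb and 0.08 FPKM of Fabp2. The other HFD islets of week 16 held 5.13 to 5.81 and 0.08 to 0.74 FPKM. CD106 held 0.61 FPKM of Alb and 0 FPKM of Fabp2. The other CD islets of week 4 held 0.2 to 0.21 and 0 to 0.04 FPKM. The part of intestinal and hepatocyte transcripts in these values was not tested.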

How the results depend on the processing

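By week, the count of members called moved as follows. At week 8 it was 2, not 0, with all 12 groups in one fit. In that fit the calls were Apoc2 and Apoe at week 16 and Apoa4 at week 20. At week 16 it was 1, not 2, with a log2 fold change of at least 1 also required. At week 20 it was 1 as reported, 0 without the filter, 0 with the library total taken without the members and the Mup genes, 0 with a log2 fold change of at least 1, 2 with median ratio scaling and 2 without trend and robust variances. The mean over weeks gave 5 members with median ratio scaling, not 3. In islets 2 were called with the total taken without Ins1 and Ins2, not 0. For the interaction 2 were called without HFD217, and 2 without HFD217, CD103, CD104 and HFD617, not 0 (both chosen after seeing the data). Leaving out 1 mouse at a time, the counts ranged from 0 to 0 at week 4, 0 to 2 at week 8, 2 to 2 at week 12, 0 to 3 at week 16, 0 to 2 at week 20, 0 to 0 at week 24 and 3 to 4 for the mean over weeks. The week 8 count was 2 without HFD217. The week 16 count was 0 without HFD414, 1 without CD403, HFD416 or HFD418, and 3 without HFD411. The week 20 count was 2 without HFD518 and 0 when any 1 of the other 7 mice was left out. The log2 fold change of Apoa4 kept its call in 14 of 14 settings at week 12 and 9 of 14 at week 16, and that of Apoc2 in 14 of 14 at week 12, 13 of 14 at week 16 and 4 of 14 at week 20; none reversed. The cause of these moves was not tested. No paired analysis was possible because the HFD and CD mice of a week share no mouse number. With no read counts, the depth behind low values such as those in islets is unknown.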
